A study of Mus musculus with 6 samples.

Results

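The limb and joint patterning transcription factors described here are 10 genes listed by name among the 47729 genes of the deposited table. They are *Pitx1* and *Tbx4*, *Shox2*, *Meis1* and *Meis2*, *Prrx1*, *Tbx15* and *Hand2*, and *Nkx3-2* and *Erg*. Polyadenylated RNA was taken at 14 days of age from the epiphysis at the knee end of the tibia, in 3 mice of each group, with both tibiae of a mouse in 1 library. LS1 stands for Longshanks 1, 1 of the mouse lines selected for a tibia that is long for the body mass, and the Control mice were of a random-bred ICR line. The mice came from different families of generation F13, and no gene was altered and no treatment given in either group. The LS1 values stand for 1 selected line, so selection and the chance history of that line cannot be told apart. The tissue held the joint cartilage, the secondary ossification centre, the growth plate and the metaphysis with its marrow. In such bulk samples, fewer cells of a type and less RNA per cell cannot be told apart.

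Patterning factors set out the limb in the embryo, and many stay on in cartilage and its surrounding cells after birth. *Pitx1* and *Tbx4* give the hindlimb its identity, *Shox2* and the MEIS proteins act in its proximal part, and *Prrx1*, *Tbx15* and *Hand2* mark and pattern limb mesenchyme. *Nkx3-2* keeps chondrocytes immature and takes part in joint development, and *Erg* is expressed in joint and articular chondrocytes. *Erg* and *Meis1* are also well known in blood and vessel cells. The region of *Nkx3-2* is known as a locus under selection in Longshanks, which raised the question of whether its RNA, or that of the other patterning factors, differed between the lines.

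Sequence before a start site is shown only where the window overlapped no annotated exon, which left 3 factors. They were the one with the highest level per kb of exon (*Shox2*), a hindlimb factor whose 2 groups did not overlap (*Tbx4*), and the joint chondrocyte factor *Erg*. The sequences are the 250 bases before a RefSeq start in GRCm38.p6, read 5′ to 3′ on the strand of the gene, at chr3:66981772-66982021 (minus strand), chr11:85896515-85896764 (plus strand) and chr16:95586594-95586843 (minus strand, the first of 3 listed *Erg* starts). The *Tbx4* window lies inside the GENCODE span of that gene, which begins farther upstream, and overlaps none of its exons. Capitals mark matches to a TATA box (TATAAA), an E-box (CANNTG), a MEIS motif (TGACAG) and a paired-class homeodomain motif (TAATTA), each searched on both strands.
Shox2: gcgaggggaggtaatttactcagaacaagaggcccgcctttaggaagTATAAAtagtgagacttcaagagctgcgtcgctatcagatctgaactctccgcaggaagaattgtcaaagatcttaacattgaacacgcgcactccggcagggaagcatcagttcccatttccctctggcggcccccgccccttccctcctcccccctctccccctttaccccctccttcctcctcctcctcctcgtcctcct
Tbx4: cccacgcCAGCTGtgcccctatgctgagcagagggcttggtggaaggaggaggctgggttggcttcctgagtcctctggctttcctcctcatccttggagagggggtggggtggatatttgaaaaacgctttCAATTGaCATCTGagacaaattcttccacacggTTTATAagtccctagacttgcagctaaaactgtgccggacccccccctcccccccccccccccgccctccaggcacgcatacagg
Erg: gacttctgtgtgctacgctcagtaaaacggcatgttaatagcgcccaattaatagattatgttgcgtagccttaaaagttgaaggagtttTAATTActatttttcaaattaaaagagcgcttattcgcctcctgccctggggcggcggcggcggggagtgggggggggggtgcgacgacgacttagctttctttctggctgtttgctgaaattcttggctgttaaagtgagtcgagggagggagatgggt
The *Shox2* window held 1 TATA box and none of the other 3 motifs. The *Tbx4* window held 1 TATA box, read on the opposite strand, and 3 E-boxes, of which none overlapped the TATA box. The *Erg* window held 1 homeodomain motif and no TATA box. Other listed *Erg* starts, not shown, differed. The window at chr16:95530366-95530615 held 1 TATA box and none of the other motifs. The window at chr16:95459349-95459598 held 2 MEIS motifs, 2 E-boxes and 1 homeodomain motif. Among all 32851 RefSeq windows of this length, 12.4% held the TATA box, 66.2% an E-box, 15.9% the MEIS motif and 4.84% the homeodomain motif, so the matches are descriptions of these letters only. The GC content was 55.6% for *Shox2*, 58.4% for *Tbx4* and 48.8% for *Erg*, against a median of 52.4% over all windows. Windows of 8 of the 10 factors were used, and those of *Pitx1* and *Tbx15* were not analysed here.

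The 6 libraries held 68803249 to 76581954 reads in Control and 82227711 to 88745366 reads in LS1. The deposited values are read counts divided by a size factor of the library and are called normalized counts below. LS1 replicate 3 lay apart from the other 2 LS1 libraries on the first principal component (35.1% of the variance), at -4.29 against 43.7 and 50.1, while the Control libraries lay between -41.5 and -22.1. *Xist* was at 70194 to 71731 normalized counts in Control replicates 1 and 2 and LS1 replicate 2, and at 99.8 to 221 in the other 3, which had the Y-linked RNAs, so the libraries of each group were of both sexes. The chondrocyte markers were present throughout, and the sum of the length-scaled levels of the 12 markers ran from 15216 to 17933 in Control and from 20571 to 24063 in LS1. Marrow was present as well, with the sum of the 10 erythroid markers at 4585 to 6046 in Control and 3356 to 5526 in LS1.

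All 10 factors were detected in every library, across a 481-fold range of length-scaled levels. The length-scaled level is the normalized count per kb of exon, scaled to the same sum in each library, and it is used here only to compare genes. *Shox2* had the highest mean level over the 6 libraries (64.5) and *Tbx15* the next (59.1), followed by *Erg* (42.6), *Prrx1* (35.4) and *Pitx1* (17.1). These 5 stood above *Tbx4* (3.82), *Meis1* (2.91), *Nkx3-2* (1.56), *Meis2* (0.384) and *Hand2* (0.134). *Shox2* thus lay above 83.9% of the 14970 protein-coding genes tested, and *Nkx3-2* above 14.6%. The ranges over libraries did not overlap between *Prrx1* and *Pitx1*, *Pitx1* and *Tbx4*, *Nkx3-2* and *Meis2*, and *Meis2* and *Hand2*. The ranges of the other 5 neighbouring pairs overlapped. Of these, *Tbx15* was above *Erg*, *Erg* above *Prrx1* and *Tbx4* above *Meis1* in 6 of 6 libraries, while *Shox2* was above *Tbx15* in 4 of 6 and *Meis1* above *Nkx3-2* in 5 of 6. When the longest coding length was used in place of all exon bases, 8 of the 10 genes took another place and *Prrx1*, whose exons span 11066 bases with 735 of them coding, came first.

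**Figure D1:**
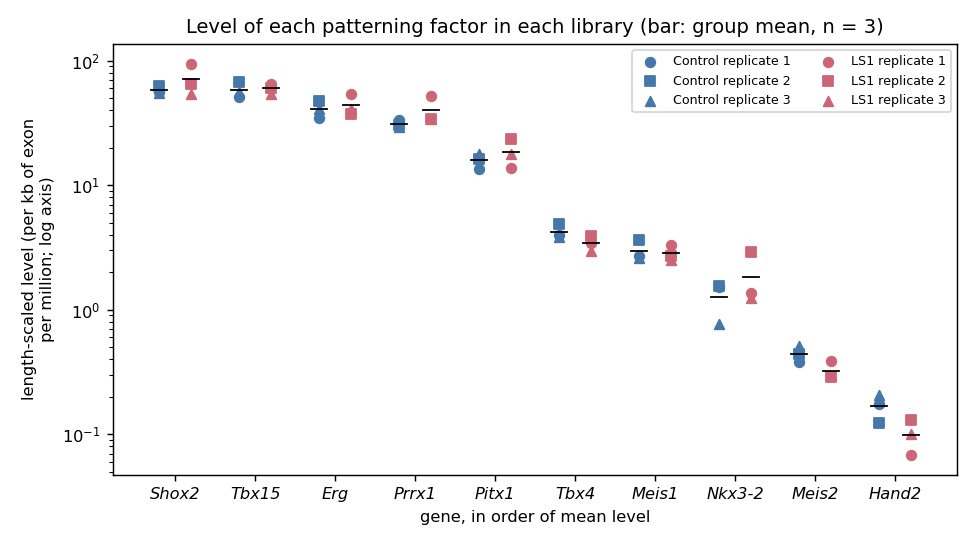
Length-scaled level (per kb of exon, log axis) of the 10 factors in each of the 6 libraries on a common scale, with blue for Control, red for LS1, a marker shape for each replicate and bars for group means. The 5 factors from *Shox2* to *Pitx1* lie above the 5 from *Tbx4* to *Hand2* in every library.

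No patterning factor passed the test between LS1 and Control. Of the 10, 9 reached the mean of 20 reads needed for testing and *Hand2* did not. With limma on log2(value + 1) and Benjamini-Hochberg adjustment over all 19308 genes tested, the adjusted p-value was under 0.05 for 0 of the 9 factors, and the unadjusted p-value was under 0.05 for 0 of them. Over all genes tested, 0.0725% were called (0.0104% higher and 0.0622% lower in LS1) and 12.9% reached an unadjusted p-value under 0.05. The edgeR quasi-likelihood test, DESeq2 and limma-voom on the recovered reads also called 0 of the 9, where they called 0.0363%, 2.38% and 0.0414% of all genes. The fitted log2 fold change (LS1 minus Control) was positive for 6 factors and negative for 3, with a median of 0.06 beside 0.01 over all genes tested. The 95% confidence interval stayed between halving and doubling for 7 of the 9, and reached past it for *Nkx3-2* and *Meis2*. The libraries of the groups did not overlap for 2 of the 9, *Tbx4* and *Meis2*, both with LS1 below. Groups did not overlap for 19.2% of all genes tested, and with LS1 below for 8.94%.

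**Figure D2:**
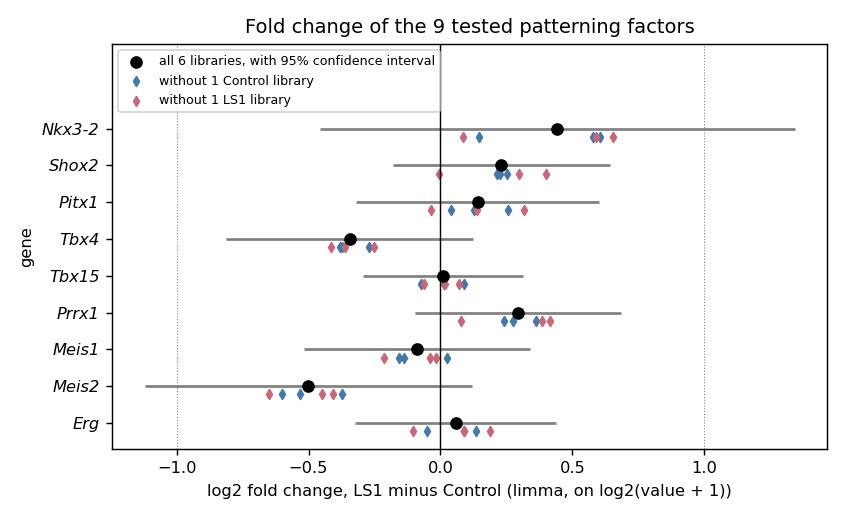
Log2 fold change of the 9 tested factors (black points, limma, LS1 minus Control, 3 libraries per group) with 95% confidence intervals, and beneath each the values with 1 library left out (blue, a Control library; red, an LS1 library). Every interval crosses 0, and leaving out LS1 replicate 1 takes *Shox2* to -0.0046.

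The 2 hindlimb identity genes were both expressed, *Pitx1* at the higher level. *Pitx1* (ENSMUSG00000021506, chr13:55825051-55836192 of GRCm38, minus strand) encodes a homeodomain factor that is upstream of *Tbx4* in the hindlimb bud. Its normalized counts were 879, 996 and 1188 in Control replicates 1, 2 and 3, and 873, 1426 and 1118 in the LS1 replicates in the same order. The highest value was in LS1 and so was the lowest, and the groups overlapped. On the log2 scale *Pitx1* differed by 0.14 (SE 0.21, limma adjusted p = 0.815), and it was -0.04 without LS1 replicate 2. *Pitx1* shares 273 exon bases (10.3%) with genes that lie across it, and the exon length used for its level includes those bases. *Tbx4* (ENSMUSG00000000094, chr11:85886422-85916097, plus strand), the hindlimb T-box factor, had 329.9, 380.3 and 326 normalized counts in Control and 278, 300.2 and 239.7 in LS1. All 3 LS1 libraries lay below all 3 Control libraries. The log2 fold change was -0.34 (SE 0.21, 95% confidence interval -0.81 to 0.13, limma adjusted p = 0.522), a fold of 0.788, so the separation did not pass the test. The direction of *Tbx4* held with each library left out, with values from -0.42 to -0.25.

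The ratio of *Tbx4* to *Pitx1*, taken from length-scaled levels within each library, was 0.293, 0.298 and 0.215 in Control and 0.249, 0.164 and 0.167 in LS1. LS1 replicate 1 lay inside the Control range and the other 2 below it. The difference of the mean log2 ratio was -0.48, with an exact two-sided permutation p of 0.2 (0.2 adjusted over the 2 ratios tested), where the smallest p that 3 against 3 allows is 0.1. *Tbx5*, the forelimb counterpart of *Tbx4*, was the lower of the pair in 6 of 6 libraries, with a *Tbx4* to *Tbx5* ratio of 3.43 to 13.6.

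Of the proximal limb genes, *Shox2* had 1 high LS1 library and the MEIS genes none. *Shox2* (ENSMUSG00000027833, chr3:66971727-66981771, minus strand), a homeodomain factor of the proximal limb that promotes chondrocyte maturation, had 4558, 4736 and 4502 normalized counts in Control and 7472, 4921 and 4267 in LS1. The Control libraries lay close together, LS1 replicate 1 lay above all others, and LS1 replicate 3 lay below all 3 Control libraries. The fitted log2 difference was 0.23 (SE 0.19, limma adjusted p = 0.633). Without LS1 replicate 1 it was -0.0046, so the positive value rested on that library. *Rsrc1* lies across *Shox2* on the opposite strand and shares 153 exon bases (4.62%) with it. *Rsrc1* had 65.4% to 87.9% of the normalized count of *Shox2*, and the sources used here do not state whether the counting used strand.

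*Meis1* and *Meis2* encode homeodomain cofactors that pair with PBX proteins and mark the proximal limb bud. *Meis1* (ENSMUSG00000020160, chr11:18879817-19018985, minus strand) had 697, 872 and 680.2 normalized counts in Control and 830.4, 652 and 634 in LS1, with overlapping groups. The log2 fold change of *Meis1* was -0.09 (SE 0.19, limma adjusted p = 0.880), and it was 0.02 without Control replicate 2. *Meis1* shares 1925 exon bases (18.3%) with genes that lie across it, and the exon length used for its level includes those bases. *Meis2* (ENSMUSG00000027210, chr2:115863064-116065839, minus strand) had 112.0, 123 and 154 normalized counts in Control and 111.4, 79.2 and 83.9 in LS1. All 3 LS1 libraries of *Meis2* lay below the Control libraries, but LS1 replicate 1 and Control replicate 1 differed by less than 1 normalized count. The log2 fold change of *Meis2* was -0.50 (SE 0.28, 95% confidence interval -1.12 to 0.12, limma adjusted p = 0.482), the smallest adjusted p-value among the 9 factors.

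Within each library the level of *Meis1* exceeded that of *Meis2*, with a ratio of 7.12, 8.11 and 5.06 in Control and 8.52, 9.41 and 8.64 in LS1. All 3 LS1 ratios lay above the Control ratios. The difference of the mean log2 ratio was 0.42, with an exact two-sided permutation p of 0.1, the smallest possible, and 0.2 after adjustment over the 2 ratios. *Meis3*, the third gene of the family and named here after its values were seen, had 5.18 to 10.2 times the length-scaled level of *Meis1*. This ratio rests on all exon bases, 10532 for *Meis1* with 1395 of them coding, and was not computed on coding length. The megakaryocyte and blood progenitor markers are given beside *Meis1*, which is expressed in such cells. The sum of the 10 megakaryocyte markers ran from 777 to 1453 in Control and from 606 to 1071 in LS1. All 10 had negative log2 fold changes (median -0.59), and limma called 0 of them. An unadjusted limma p-value under 0.05 was reached by 5 of the 10, beside 12.9% of all genes tested. The sum of the 8 blood progenitor markers ran from 352 to 604 in Control and from 397 to 565 in LS1, and the median of their log2 fold changes was 0.06. Their part in the *Meis1* values was not tested.

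The limb mesenchyme genes ranged from the most to the least abundant of the factors by normalized count. *Prrx1* (ENSMUSG00000026586, chr1:163245119-163313710, minus strand), a paired-related homeodomain factor of limb bud mesenchyme that stays in periosteal and other stromal cells, had 9096, 7695 and 8067 normalized counts in Control and 13616, 8539.7 and 8934 in LS1. LS1 replicate 1 stood above the rest, and the other 2 LS1 libraries lay within the Control range. *Prrx1* had a log2 fold change of 0.29 (SE 0.18, 95% confidence interval -0.10 to 0.68, limma adjusted p = 0.511), and it was 0.08 without LS1 replicate 1. The sum of the 9 tendon and fibroblast markers ran from 1520 to 1639 in Control and from 1840 to 2258 in LS1. Log2 fold changes were positive for 8 of these markers and negative for 1. Their part in the *Prrx1* values was not tested. The relative *Prrx2*, named after its values were seen, was lower, with a *Prrx1* to *Prrx2* ratio of length-scaled levels of 5.64 to 11.7. That ratio rests on all exon bases, 11066 for *Prrx1* with 735 of them coding, and was not computed on coding length.

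*Tbx15* (ENSMUSG00000027868, chr3:99240381-99354259, plus strand), a T-box factor needed for the size of several skeletal elements, had the log2 fold change nearest to 0 among the 9 tested factors. It had 4649, 5840.2 and 5248 normalized counts in Control and 5805, 5187 and 4823 in LS1. The LS1 range lay inside the Control range. The log2 fold change was 0.01 (SE 0.14, 95% confidence interval -0.30 to 0.31, limma adjusted p = 0.987), or a fold between 0.815 and 1.24. The length-scaled level of *Tbx15* was 12.8 to 18.9 times that of *Tbx4*. Muscle also expresses several limb factors, and the summed level of the 12 skeletal muscle markers ran from 217 to 534 in Control and from 109 to 339 in LS1. All 9 muscle markers tested had negative log2 fold changes (median -0.68). An unadjusted limma p-value under 0.05 was reached by 1 of them, beside 12.9% of all genes tested. Limma called 0 of the muscle markers and DESeq2 called 1, where DESeq2 called 2.38% of all genes. The part of the muscle markers in the values of *Tbx15* and *Pitx1* was not tested.

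*Hand2* (ENSMUSG00000038193, chr8:57320983-57324633, plus strand), the basic helix-loop-helix factor that sets up the posterior limb bud, was close to the limit of these libraries. It had 10, 6 and 11 reads in Control and 4, 8 and 6 in LS1, or 10.1, 6.65 and 12.2 against 3.81, 6.96 and 5.60 normalized counts. The groups overlapped, and a difference was not detectable at this depth. In a fit with no filter on low counts *Hand2* had a log2 fold change of -0.72 (limma adjusted p = 0.796). *Hand2os1*, on the opposite strand, shares 461 exon bases (19.6%) with *Hand2* and had 27.3% to 150% of its normalized count.

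*Nkx3-2* (ENSMUSG00000049691, chr5:41761483-41764501, minus strand), an NK-type homeodomain repressor that holds back chondrocyte hypertrophy, varied widely among libraries. It had 63.6, 61.0 and 33.2 normalized counts in Control and 56.2, 114 and 51.3 in LS1. LS1 replicate 2 was 2.18-fold above the mean of the other 5 libraries (mean of logs), while the other 2 LS1 libraries lay within the Control range. Its fitted log2 fold change was 0.44 (SE 0.41, 95% confidence interval -0.46 to 1.34, limma adjusted p = 0.679), and it was 0.09 without LS1 replicate 2 and 0.15 without Control replicate 3. The interval ran from a fold of 0.729 to 2.54, so a doubling of *Nkx3-2* in LS1 was within the error at 30 to 131 reads per library.

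The genes around *Nkx3-2* were read in the same fit. Of 10 annotated genes within 1 Mb of it, 4 were tested and 0 were called by limma, edgeR, DESeq2 or limma-voom. An unadjusted limma p-value under 0.05 was reached by 1 of the 4, beside 12.9% of all genes tested. That gene was *Rab28*, which encodes a small GTPase, 53.3 kb from *Nkx3-2*, with 4718, 3835 and 4144 normalized counts in Control and 6200.1, 5034 and 5477 in LS1. All 3 LS1 libraries of *Rab28* lay above the Control libraries, as they did for 10.3% of all genes tested. Its log2 fold change was 0.40 (SE 0.14, limma adjusted p = 0.293), and it kept its sign with each library left out, from 0.32 to 0.48. The other 3 had log2 fold changes of 0.05 for *Bod1l*, the nearest tested neighbour at 23.0 kb, -0.27 for the pseudogene *Gm4754* and 0.80 for *Gm16223*. *Gm16223* had few reads, 19, 14 and 10 in Control and 35, 37 and 19 in LS1. Its groups overlapped in normalized counts (SE 0.47, limma adjusted p = 0.499).

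*Erg* (ENSMUSG00000040732, chr16:95359169-95586593, minus strand), an ETS factor of articular and joint cartilage and also of endothelium, had 2923, 3793 and 3559 normalized counts in Control and 4428, 2962 and 3391 in LS1. LS1 replicate 1 was the highest and Control replicate 1 the lowest, and the groups overlapped. *Erg* had a log2 fold change of 0.06 (SE 0.17, 95% confidence interval -0.32 to 0.44, limma adjusted p = 0.918), and it was -0.10 without LS1 replicate 1. The 12 endothelial markers, given here because vessels also express *Erg*, had a median log2 fold change of 0.04 and a summed length-scaled level of 335 to 378 in Control and 337 to 436 in LS1. Their part in the *Erg* values was not tested.

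The factors did not share 1 pattern over the libraries. LS1 replicate 1 was the highest library for *Shox2*, *Prrx1* and *Erg*, LS1 replicate 2 for *Nkx3-2* and *Pitx1*, Control replicate 2 for *Tbx4*, *Tbx15* and *Meis1*, and Control replicate 3 for *Meis2*. Over all genes tested, the highest library was LS1 replicate 1 for 25.1%, LS1 replicate 2 for 15.0%, LS1 replicate 3 for 16.0%, Control replicate 1 for 13.0%, Control replicate 2 for 13.0% and Control replicate 3 for 18.0%. The excess of that library over the mean of the other 5 was 0.70 on the log2 scale for *Shox2* and 0.69 for *Prrx1*, and 6.80% and 7.07% of all genes tested deviated further upward in it. With log2 of the *Xist* value as a covariate, an alternative chosen after the data were seen, 0 of the 9 factors were called and the log2 fold change of *Nkx3-2* was 0.79 (unadjusted p = 0.037, adjusted p = 0.369, limma).

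**Figure D3:**
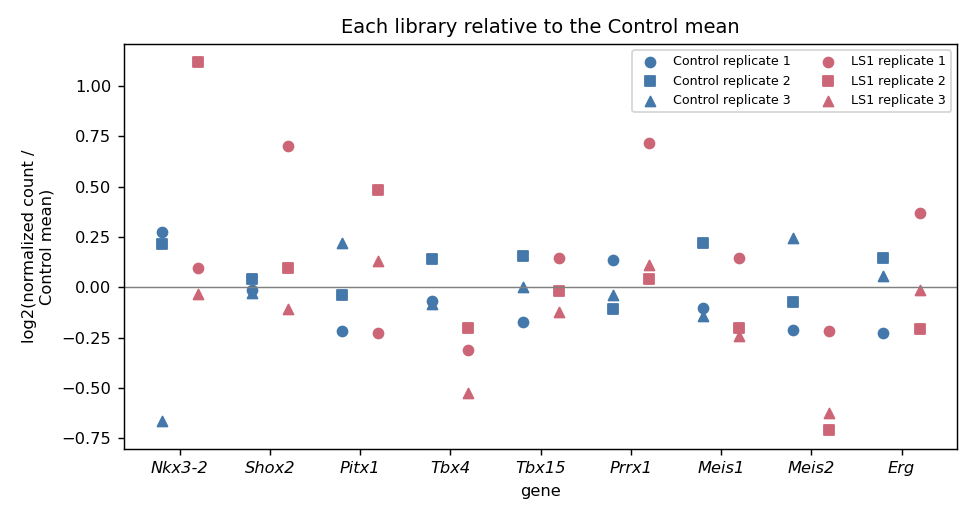
Log2 ratio of each library to the Control mean of normalized counts for the 9 tested factors, with blue for Control, red for LS1 and a marker shape for each replicate. LS1 replicate 1 stands above the other libraries for *Shox2* and *Prrx1*, and LS1 replicate 2 for *Nkx3-2*, while only *Tbx4* and *Meis2* have all LS1 points below all Control points.

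The partners and neighbours of the patterning factors in the limb network gave no call either with limma. In 5 lists of 87 genes (family relatives, PBX and PREP partners, other limb patterning factors, joint genes, and upstream signals with their targets), 71 were tested and 0 were called by limma, edgeR or limma-voom, while DESeq2 called 3 (*Runx2*, *Col10a1* and *Nog*). DESeq2 called 2.38% of all genes tested. An unadjusted limma p-value under 0.05 was reached by 12 of the 71 (16.9%), beside 12.9% of all genes tested. Of these 12, 9 had higher and 3 had lower values in LS1. Groups did not overlap for 14 of the 71 (19.7%), beside 19.2% of all genes tested. The 71 had a median log2 fold change of 0.06. Without LS1 replicate 3, limma called *Sox9* (outside the rule for named genes), *Prg4* and *Nog*, and again 0 patterning factors.

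Among the family relatives, 7 of 13 were tested and *Tbx2*, a T-box repressor, had the smallest p-value, with 2020.0, 2336 and 2784 normalized counts in Control and 1233, 1571 and 2299 in LS1 (log2 fold change -0.52, limma adjusted p = 0.356). LS1 replicate 3 of *Tbx2* lay inside the Control range. The 7 PBX and PREP partners, the cofactors of the MEIS proteins, were all tested and their median log2 fold change was -0.02. *Pbx4* was the farthest from 0 among them at -0.87 (limma adjusted p = 0.395).

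Among the other limb patterning factors, 26 of 32 were tested, 11 with positive and 15 with negative log2 fold changes. *Lhx2*, a LIM homeodomain factor of limb outgrowth, had 48.4, 41.0 and 37.6 normalized counts in Control and 83.8, 80.9 and 102 in LS1. *Isl1*, a LIM homeodomain factor that starts the hindlimb field, had 65.6, 78.7 and 70.8 in Control and 43.8, 31.3 and 18.7 in LS1. Neither gene had overlapping groups, and neither passed the limma test, with log2 fold changes of 1.05 for *Lhx2* (adjusted p = 0.244) and -1.25 for *Isl1* (adjusted p = 0.256). *Etv5*, an ETS target of FGF signaling, and *Irx5*, an Iroquois factor, also separated the groups, at -0.40 and 0.45.

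The 18 joint genes were all tested, 13 of them with positive log2 fold changes. *Nog*, the BMP antagonist required for joints, had 276, 358 and 326 normalized counts in Control and 914, 557 and 455 in LS1. Its groups did not overlap, and its log2 fold change was 0.95 (limma adjusted p = 0.230, DESeq2 adjusted p = 0.0186). *Prg4*, which encodes the lubricin of the joint surface, had 3229, 3472 and 2755 in Control and 8247, 5749.7 and 3072 in LS1, with LS1 replicate 3 inside the Control range. Of the upstream signals and targets, 13 of 17 were tested and 11 had positive log2 fold changes. *Runx2*, the hypertrophy and osteoblast regulator that NKX3-2 represses, had a log2 fold change of 0.59 (limma adjusted p = 0.185), and *Col10a1*, the collagen of hypertrophic chondrocytes, of 0.61 (limma adjusted p = 0.158). Neither had overlapping groups, and the chondrocyte marker sum given above was also higher in every LS1 library than in every Control library. Of the 12 chondrocyte markers, 11 had positive log2 fold changes (median 0.48). An unadjusted limma p-value under 0.05 was reached by 7, each higher in LS1, beside 12.9% of all genes tested. Limma called 0 of them, or 3 without LS1 replicate 3, and DESeq2 called 6, beside 2.38% of all genes. The part of the chondrocyte markers in the *Runx2* and *Col10a1* values was not tested.

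**Figure D4:**
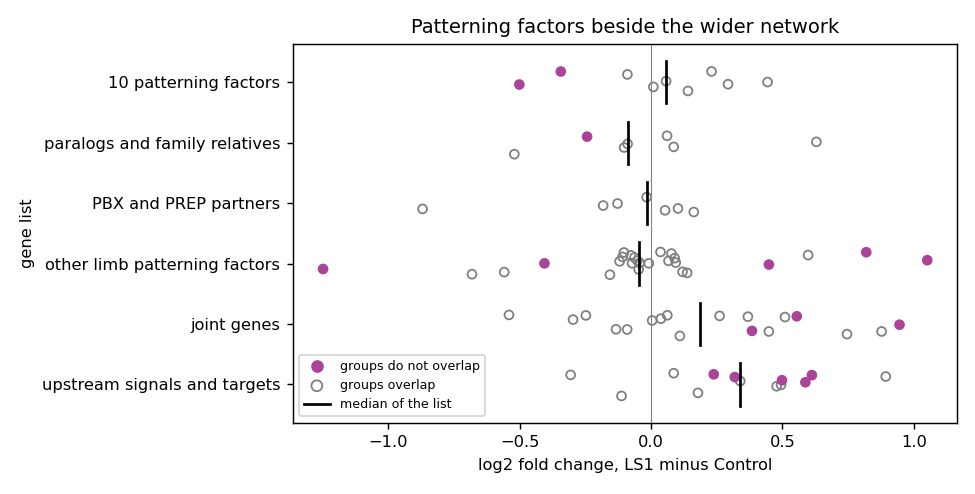
Log2 fold change (limma, LS1 minus Control) of each tested gene, in rows for the patterning factors and the 5 lists of related genes, with filled points where the groups did not overlap and black bars at list medians. The patterning factors lie between -0.50 and 0.44, with a median of 0.06, and the upstream signals and targets have a median of 0.34.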

How the data were processed

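RNA from 3 Control and 3 LS1 mice was sequenced as polyadenylated libraries on a 5500xl instrument. The authors aligned the reads to GRCm38 (HISAT2 2.0.2, per the labels), ran featureCounts 1.4.6 on Ensembl release 84 genes, and deposited the counts divided by a size factor per library, a signal value scaled for depth. In each library 100% of the deposited signal values were whole multiples (tolerance 0.01) of the value of 1 read, which recovered the counts. In Control replicate 1 that value (1.01) was near 1, but the values were not rounded to whole numbers, as 10 reads of *Hand2* stood at 10.09. Each library came from 1 mouse. Genes with a mean of 20 reads were tested with limma 3.58.1 (trend, robust) on log2(value + 1), a scale that understates the change of low genes, with Benjamini-Hochberg adjustment over all 19308. Alternatives were edgeR 4.0.16, DESeq2 1.42.0, limma-voom, other scalings, filters and pseudocounts, a replicate block and each library left out. The design had named limma for normalized values and edgeR for raw counts, and the values were normalized. Scripts were tested on simulated data.

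Symbols, exon lengths and positions come from GENCODE M21 (GRCm38), in which all 10 factors matched the table by Ensembl identifier, and promoter sequences come from RefSeq. Ratios were tested with an exact permutation test. The members and gene lists were chosen with earlier results of these data known. Named were the 10 factors, called list genes, up to 4 tested genes with the smallest p-value in each list other than markers, and tested genes within 1 Mb of *Nkx3-2*. In marker lists these were the 3 most abundant genes and those with the lowest and highest fold change, here summarised as list sums. Others are said to have been named later, and some genes that the rule names are not reported here.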

Additional observations from a re-analysis of the deposited data

How the results depend on the processing

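Over 17 alternative fits and 152 combinations of a tested factor and a fit, 0 factors were called, and the smallest adjusted p-value was 0.258. In 12 combinations the log2 fold change changed sign, for *Shox2*, *Pitx1*, *Tbx15*, *Meis1* or *Erg*. *Tbx15* was at -0.0053 with edgeR, -0.0019 with DESeq2, -0.0028 with limma-voom and -0.0034 with TMM scaling, and *Erg* at -0.0227 with *Xist* as a covariate. The cause was not tested. With 1 library left out, log2 fold changes ran from -0.0046 to 0.40 for *Shox2*, -0.0356 to 0.32 for *Pitx1*, -0.0749 to 0.0896 for *Tbx15*, -0.21 to 0.0239 for *Meis1*, -0.10 to 0.19 for *Erg*, 0.09 to 0.65 for *Nkx3-2* and 0.08 to 0.42 for *Prrx1*. *Tbx4*, *Meis2*, *Nkx3-2* and *Prrx1* kept their sign in every fit in which they were tested.

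The count of non-overlapping factors was 2 under no filter, a mean of 100 reads and TMM scaling, and 2 to 3 with 1 library left out. A filter does not change the values of a gene, and leaving out a library cannot make separated groups overlap. Of these settings, only TMM scaling could have undone a separation. The share of all genes with 1 library left out was not computed for comparison. Calls among the 71 related genes were 3 with DESeq2, 1 (*Col10a1*) with no filter and 0 to 3 with 1 library left out, of which the 3 came without LS1 replicate 3. Of the 10 places in the level order, 8 changed with coding length, and 2 each within Control replicate 2, Control replicate 3 and LS1 replicate 2. With the letter of the sample titles as a replicate block, 0 factors were called. The deviations of samples with the same letter from their group means had correlations of 0.05, 0.02 and 0.22 over the genes tested. Pairs with different letters were not computed for comparison, and the labels do not say what the letters mark.

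With 3 mice per group, a doubling of *Nkx3-2* in LS1 or a halving of *Meis2* lies within the error, and *Hand2* had too few reads to test.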

Other observations

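Bone, B cell, connective tissue and nerve markers in the same libraries are given here as values. Of these, only the tendon and fibroblast markers were set beside a factor above. Of 11 osteoblast and osteocyte markers, 0 were called by limma and 1 by DESeq2. Log2 fold changes were positive for 6 and negative for 5 of them, with a median of 0.04. An unadjusted limma p-value under 0.05 was reached by 1, *Bglap* (osteocalcin). It had 57751, 55041 and 45834 normalized counts in Control and 31971, 37175 and 12317 in LS1 (log2 fold change -1.10, limma adjusted p = 0.350). Of 10 B cell markers, limma called 0, or 4 without LS1 replicate 3, and DESeq2 called 1, while 6 were below an unadjusted limma p-value of 0.05, each lower in LS1. Of 9 tendon and fibroblast markers, limma called 0, or 2 without LS1 replicate 3, and DESeq2 called 1, while 3 were below it, each higher in LS1, among them *Tnmd* (tenomodulin) at 1.24. The 5 tested nerve and Schwann cell markers had a median log2 fold change of -0.21, with 1 under that unadjusted threshold and 0 called by limma or DESeq2. Over all genes tested, 12.9% reached an unadjusted limma p-value under 0.05, and limma called 0.0725% and DESeq2 2.38%.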
